A study of Mus musculus with 4 samples.

Results

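The peaks described here are the Gata6 binding intervals that lie in the densest 1-Mb windows of the mouse genome. They were chosen by their own positions: each chromosome was divided into windows of 1 Mb, and all peaks were kept whose midpoint fell in a window with 20 or more midpoints. This gave 53 windows with 1253 peaks, 10.3% of the list, against 10884 peaks in all other windows. Because positions chose these peaks, their counts, densities and spacings are given as descriptions without a test.

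The peaks come from ChIP-seq in primary keratinocytes of dorsal mouse skin (strain background C57BL6/CBA). All cells carried the K14deltaNLef1 transgene, driven by the keratin 14 promoter of basal epidermal cells, and a lentivirus made them overexpress Gata6. The series has 4 libraries: 2 Gata6 ChIPs with different antibodies, 1 Flag ChIP as a negative control and 1 input. The cultures stood on irradiated feeder cells of the mouse fibroblast line 3T3-J2, whose DNA, where carried over, cannot be told apart. The list analysed is 1 set of overlap intervals on build mm9 for the whole series, and which libraries were overlapped is not stated. No value per library, no read depth and no replicate spread therefore stand behind a peak, and the cell type could not be checked against markers.

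Gata6 is a zinc-finger transcription factor of the GATA family, which binds short DNA motifs with a GATA core. In skin it is known from the upper hair follicle and the sebaceous duct. Binding sites of a transcription factor often gather in broad regulatory domains around genes that are active in the cell, so a window with many peaks can hold one such domain, several, or a row of active genes.

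By peak count, dense windows were the upper end of a continuous range and not a class apart. Between the outermost peaks of the chromosomes there were 2565 windows, with a median of 3 peaks, and 704 of them (27.4%) held none. The dense windows made up 2.07% of these and held a median of 23 peaks, with 39 of the 53 holding 20 to 24 and only 4 holding 30 or more. At the threshold, 11 windows held exactly 20 peaks and 14 held 19. The latter 14 windows, just outside, had a median spacing of 21.0 kb between neighbouring midpoints, and the 11 just inside had 22.5 kb. This median depends on the peak number, so its likeness was in part fixed in advance. The median distance to the nearest peak was 8.75 kb just outside and 11.6 kb just inside. A neighbour within 5 kb was found for 94 of 266 peaks just outside (35.3%) and 65 of 220 just inside (29.5%). Within 20 kb the shares were 69.2% and 68.2%. Spacing across the threshold was thus alike by some measures and less so at short distances.

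**Figure D1:**
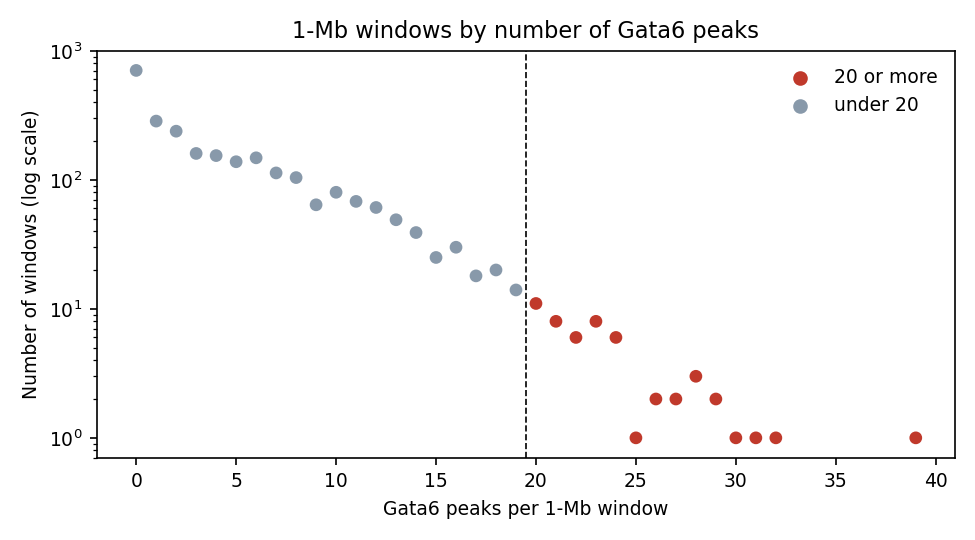
Number of 1-Mb windows (y axis, log scale) by the Gata6 peaks they hold (x axis), with 1 point per peak number that occurs. Red points are the 53 windows with 20 or more peaks and the dashed line marks the threshold; the counts fall without a break across it, and the window with 39 peaks stands alone.

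The dense windows lay on 17 of the 20 chromosomes. Chromosome 11 had 9, holding 201 of its 959 peaks (21.0%), and chromosome 6 had 7, holding 170 of 920 (18.5%). Chromosome 15, with fewer peaks in all, still had 17.2% of its 524 in 4 dense windows, and chromosome 19 had 16.7% of its 426 in 3. Chromosome 9 was at the other end, with 1 dense window and 3.24% of its 617 peaks. Chromosomes 12, 14 and X had no dense window, and their fullest windows held 17, 13 and 8 peaks. A dense window held between 2.48 and 7.55 times the mean of its own chromosome's windows, with a median of 4.13.

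Inside the windows, peaks were spread over most of the length. The stretch from the first to the last peak had a median of 899 kb over the 53 and ranged from 524 to 991 kb. The shortest was at chr6:97000001-98000000, where all 20 peaks lay within 524 kb and 4 of the 10 stretches of 100 kb held none. The listed intervals themselves covered 167.1 kb, or 0.315% of the bases of the 53 windows. No listed interval is wider than 166 bp, so this share could not be large, and it says nothing of the width of whole binding sites.

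Spacing was uneven within that length, which is described here without comparison to randomly placed peaks. The median gap between neighbouring midpoints of a window was 20.6 kb over the 53 windows (range 10.9 to 37.4 kb), whereas the longest gap of a window had a median of 186 kb and reached 426 kb. Every dense window held at least 1 pair of neighbours within 5 kb, with a median of 4 such pairs and at most 13, and 36 windows held a pair within 1 kb. The fullest 100-kb stretch held a median of 25% of a window's peaks, from 15.4% to 42.9%. Of the 53 windows, 46 had at least 1 stretch of 100 kb with no peak.

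Some windows were lopsided. In 8 of them more than 75% of the peaks lay in the same 500-kb side. At chr10:18000001-19000000 the first 500 kb held 2 peaks and the second held 19, of which 9 lay in a single 100-kb stretch. At chr3:135000001-136000000 the first side held 20 of 24 peaks, at a median spacing of 10.9 kb for the whole window, the tightest of the 53, next to a gap of 426 kb, the longest. Both windows combine a compact block of peaks with nearly empty sequence, while the fullest window, described below, has peaks in every 100 kb.

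**Figure D2:**
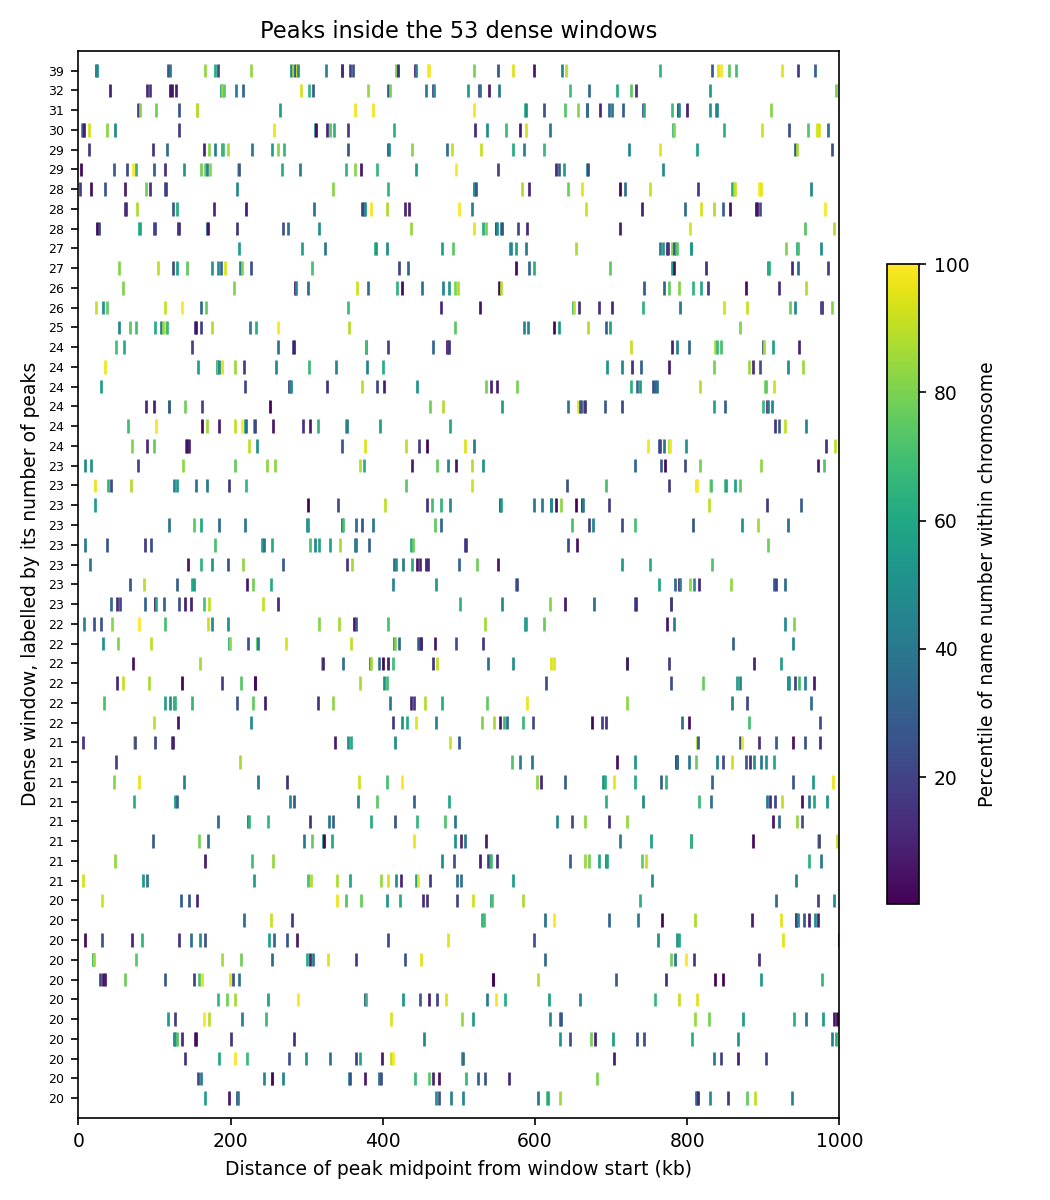
Positions of all 1253 peaks in the 53 dense windows. Each row is a window, ordered and labelled by its number of peaks, the x axis is the distance of a peak's midpoint from the window start in kb, and the colour is the percentile of its name number among the peaks of its chromosome; rows near the top are filled along their length, and many lower rows show blocks with wide gaps.

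Peaks of dense windows had a close neighbour more often than peaks elsewhere, which in part restates the density that chose them. Of the 1253 peaks, 418 had another within 5 kb (33.36%, 95% Wilson interval 30.8 to 36.0), against 22.0% (21.2 to 22.8) of the 10884 peaks in other windows. Within 1 kb the shares were 9.18% (7.70 to 10.9) and 6.37% (5.92 to 6.84). These intervals cover counting error only, and peaks that neighbour each other share a source. The share within 1 kb was 8.84% in windows with 15 to 19 peaks and 9.18% in dense windows, so at this short distance the densest windows hardly exceeded those below the threshold.

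Relative to the number of peaks they held, dense windows had fewer very short gaps but more very long ones. Each gap was divided by the spacing that its window would have if its peaks stood evenly over 1 Mb. The median of this ratio was 0.47 in dense windows, 0.43 in windows with 15 to 19 peaks, 0.37 with 10 to 14 and 0.31 with 5 to 9. Gaps under 0.1 of the even spacing made up 16.4% of the 1200 gaps in dense windows, 19.46% with 15 to 19 peaks, 22.5% with 10 to 14 and 26% with 5 to 9. Gaps over 3 times the even spacing went the other way, with 6.92% in dense windows, 5.77% with 15 to 19 peaks, 5.12% with 10 to 14 and 2.80% with 5 to 9. Gaps were taken only inside a window, so none could exceed 1 Mb. In windows with few peaks this left less room for gaps over 3 times the even spacing. Part of the rise in very long gaps with peak number was therefore fixed in advance, and how much was not tested. The same ratio stands for a shorter distance in a fuller window, so these values compare layouts and not distances in kb.

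Close pairs and groups contributed to the counts, and how much depended on the distance counted as close. When peaks within 1 kb of each other were counted as 1, 43 of the 53 windows still held 20 or more, and the lowest of the 53 held 18. With peaks within 5 kb counted as 1, an alternative chosen after the data were seen, 23 windows remained and 30 fell below the threshold, with a median of 19 over the 53 and 26 in the fullest. All windows that reached 20 in either count were among the 53. This was nearly fixed in advance, since counting peaks together lowers a window's count unless a joined midpoint crosses a border.

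Of the 25 groups of 4 or more peaks in the list, each within 5 kb of the next, 7 lay in dense windows (28.0%). Of the 1308 groups of 2 or more, 190 did (14.5%), beside the 10.3% of all peaks that lay there. A group adds its own peaks to the count that chose its window, so shares above 10.3% were in part fixed in advance. The groups of 5 inside dense windows were at chr7:119279052-119288251, over 9.20 kb, and chr2:167656753-167666115, over 9.36 kb. In the first, neighbouring midpoints were 2773, 2558, 3145 and 574 bp apart. In the second they were 2499, 1089, 4517 and 1156 bp apart, and the first interval was only 44 bp wide while the other 4 were 143 to 164 bp wide. The window chr19:47000001-48000000 was the only one with more than 1 group of 4, at chr19:47764194-47774492 and chr19:47780039-47786362, so that 8 of its 27 peaks lay within these neighbouring stretches of 10.3 and 6.32 kb.

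The 6 fullest windows differed in layout. The fullest, chr7:119000001-120000000, held 39 peaks with 13 pairs within 5 kb, the most of any dense window, and 1 to 6 peaks in every stretch of 100 kb. Its longest stretch without a peak, chr7:119640894-119764104, was 123 kb. The first 500 kb held 24 peaks and the second held 15. This window was thus dense along its whole length, with its fullest 100 kb at chr7:119200001-119300000 holding only 15.4% of its peaks, the lowest such share of the 53.

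At chr5:91000001-92000000 there were 32 peaks, also with at least 1 in every 100 kb, at a median spacing of 13.9 kb and with no pair within 1 kb. The window chr1:137000001-138000000 held 31, weighted to its second side: 9 peaks lay in the first 500 kb and 22 in the second. Its fullest 100 kb, chr1:137700001-137800000, held 8 peaks, and it had 4 pairs within 1 kb, a number shared only with chr3:135000001-136000000. The window chr5:91000001-92000000 also had the longest gap of the 6, 166.0 kb, and held 20 peaks in its first 500 kb and 12 in its second.

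The window chr7:87000001-88000000 divided its 30 peaks equally, 15 on each side, with 6 peaks in each of 2 separate 100-kb stretches and 1 in each of 4 others. The window chr5:136000001-137000000 held 29 peaks at the widest median spacing of the 6, 28.5 kb, and only 3 pairs within 5 kb. At chr8:129000001-130000000, also with 29 peaks, 22 lay in the first 500 kb and the last 200 kb held none. The count at chr8 therefore comes from a block of about 765 kb.

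Dense windows mostly stood alone among windows of middling density. The windows directly beside them held a mean of 8.15 ± 5.31 peaks (SD, 106 flank positions). This compares with 4.73 ± 5.42 over all 2565 windows and 23.6 ± 3.85 in the dense windows themselves. A window with a dense window on each side was counted for both, and 2 of the positions were dense windows. Beside windows with 15 to 19 peaks the mean was 8.23, so directly at their sides dense windows were no fuller than windows just below the threshold. At 35 of the 106 flank positions the window held 10 or more peaks (33.0%), against 17.8% of all windows. At 2 windows' distance the mean was 7.70 around dense windows and 6.52 around those with 15 to 19 peaks, and at 3 it was 7.06 and 6.28. At 4 it was 6.0 and 6.03, and at 10 it was 4.86 and 5.64, so the order of these classes changed with distance.

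**Figure D3:**
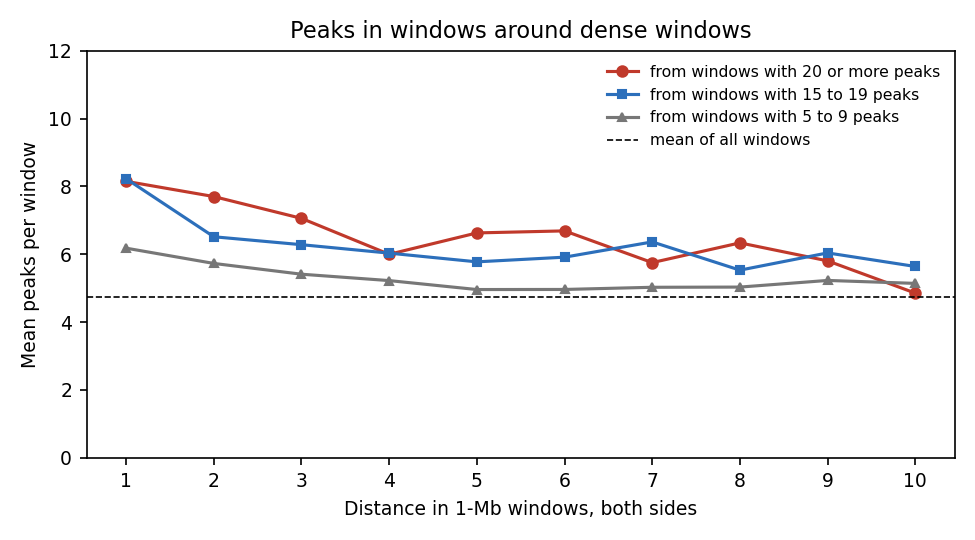
Mean number of Gata6 peaks per 1-Mb window (y axis) at 1 to 10 windows' distance on both sides (x axis) of windows with 20 or more peaks (red), 15 to 19 (blue) and 5 to 9 (grey); the dashed line is the mean of all windows, 4.73. The red line starts at 8.15, beside the blue one at 8.23, and ends at 4.86.

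On the grid used, 1 pair of dense windows was adjacent, chr19:46000001-47000000 with 22 peaks and chr19:47000001-48000000 with 27. Pairs with a single window between them were more common. They lay on chromosome 1 from 90000001 to 93000000 (20 and 21 peaks around 9), on chromosome 11 from 98000001 to 101000000 (20 and 20 around 18) and from 115000001 to 118000000 (21 and 23 around 16), on chromosome 15 from 99000001 to 102000000 (21 and 20 around 9), and on chromosome 7 from 117000001 to 120000000 (23 and 39 around 11). The last of these runs held 73 peaks in 3 Mb. With the grid moved by 500 kb, 8 dense windows had a dense neighbour, so the number of adjacent ones depends on where the borders fall.

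The most isolated dense windows had fewer than 5 peaks on either side. There were 4: chr2:167000001-168000000 (24 peaks, 3 before and 3 after), chr6:17000001-18000000 (23 peaks, 0 and 4), chr18:32000001-33000000 (21 peaks, 0 and 4) and chr13:98000001-99000000 (20 peaks, 3 and 2). By contrast, 10 dense windows had 10 or more peaks in both flanks, among them the fullest, with 11 before and 16 after.

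Peak names in the deposited list end in a whole number, unique within the chromosome. These sources do not state what it counts; "name number" refers to it from here on. To compare chromosomes, numbers were turned into percentiles among the listed peaks of a chromosome, where a low percentile is a low number. Peaks of dense windows had a mean percentile of 48.1 ± 28.8 (SD, 1253 peaks), and peaks of other windows 50.3 ± 28.9 (SD, 10884 peaks). The difference of -2.25 points was small beside the spread of single peaks. It was negative on 11 and positive on 6 of the 17 chromosomes with dense windows, from -10.5 on chromosome 4 to 2.78 on chromosome 3. In the 14 windows with 25 or more peaks the mean percentile was 50.2, and with that threshold the difference turned to 0.076 points, so the lower mean came from windows with 20 to 24 peaks, at 47.1.

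The shift showed in the share of peaks from the lowest 25% of their chromosome's numbers. Of the dense-window peaks 348 (27.8%, 95% Wilson interval 25.4 to 30.3) were in the lowest 25% of their chromosome, against 24.6% (23.8 to 25.4) of other peaks. Raw numbers 1 to 50 were borne by 6.78% (5.52 to 8.31) of dense-window peaks and 7.87% (7.38 to 8.39) of the others. A chromosome has at most 50 of these whatever its peak count. Chromosomes 12, 14 and X, with 350, 301 and 175 peaks and no dense window, add theirs to the others only. Both shares are thus not matched for chromosome, unlike the percentiles, and do not show how dense windows stand at the start of the numbers. The share in the lowest 25% was 28.9% (26.8 to 31.0) in windows with 15 to 19 peaks, 25% with 10 to 14, 24.9% with 5 to 9, and 19.2% (17.5 to 21.1) in windows with 1 to 4. The sparsest windows had the lowest share, and the densest did not go beyond the class below them.

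Part of this went with close neighbours. Among dense-window peaks the mean percentile was 44.8 ± 28.1 (SD) for the 418 with a neighbour within 5 kb and 49.7 ± 29.1 for the 835 without. In other windows it was 46.4 ± 28.0 for 2393 and 51.4 ± 29.0 for 8491. Peaks with a close neighbour had the lower numbers in both kinds of window, and between peaks of like kind the dense windows were 1.59 and 1.72 points lower.

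Single windows ranged widely. The mean percentile of a window ran from 35.7 at chr6:97000001-98000000 to 62.5 at chr11:117000001-118000000, and 31 of the 53 were under 50. The latter window also had the highest starting number, since its lowest name number was 161, whereas 14 windows held a number of 10 or lower. The window chr6:86000001-87000000 held the most peaks from the lowest 25%, 14 of 28. In the 6 fullest windows the lowest numbers were 43, 42, 62, 24, 86 and 4, in order of their peak counts, so a full window did not as a rule hold the first-numbered peaks.

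Dense windows held 11 of the 93 listed peaks numbered 1 to 5 (11.8%, 95% Wilson interval 6.73 to 19.9), beside their 10.3% share of all peaks. Raw numbers are not matched for chromosome here either, so the 10.3% is only a rough measure. These 11 lay in 9 windows. Of these, 3 shared chr15:101000001-102000000: number 2 at chr15:101846643-101846797, number 4 at chr15:101835952-101836113, and number 5 at chr15:101544890-101545055. Numbers 2 and 4 were 10.7 kb apart, and number 5 had another peak 634 bp away. Number 1 of chromosome 3 was at chr3:101997245-101997403, near the end of its window. Number 2 of chromosome 11 was at chr11:94135630-94135786, and number 2 of chromosome 6 at chr6:86024975-86025117, with a neighbour 1643 bp away. The others were number 3 at chr16:92301376-92301540 and chr19:46675020-46675180, number 4 at chr8:129002720-129002854, and number 5 at chr18:32322110-32322270 and chr2:167251094-167251257. All 11 were 135 to 166 bp wide.

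Widths did not set dense windows apart. The median was 143 bp both in dense windows (interquartile range 121 to 157 bp) and elsewhere (120 to 157 bp), and the means were 133.3 ± 32.6 and 132.8 ± 33.1 bp (SD). Intervals of 83 bp or less made up 8.62% (95% Wilson interval 7.19 to 10.3) of dense-window peaks and 9.17% (8.64 to 9.73) of the others. The full width of 166 bp was reached by 5.19% (4.09 to 6.56) and 6.42% (5.98 to 6.90). These are widths of overlap intervals, not of whole binding sites. By window, the median width ran from 117.5 bp at chr11:59000001-60000000 to 158 bp at chr7:117000001-118000000.

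**Figure D4:**
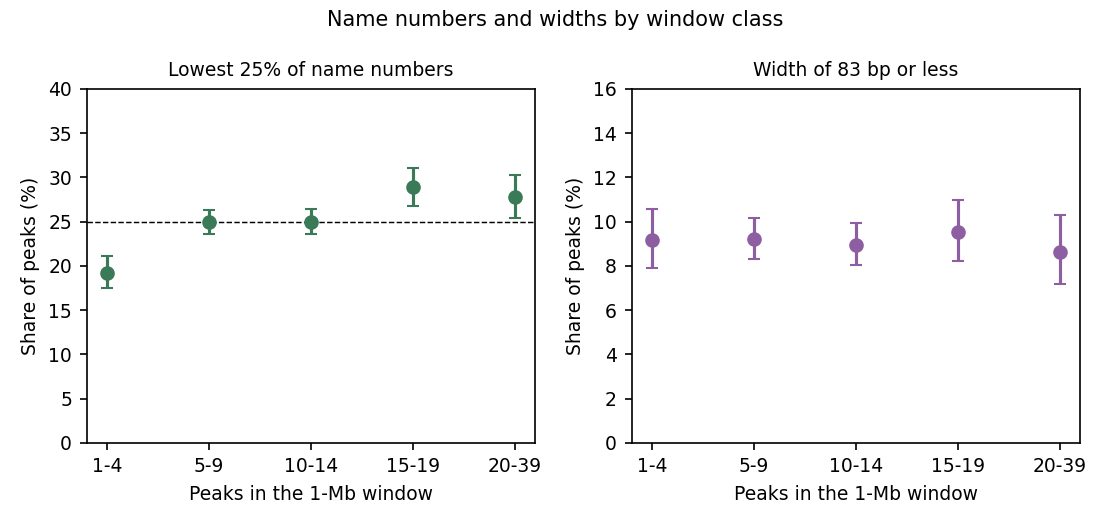
Share of peaks (%, y axis) in the lowest 25% of name numbers of their chromosome (left) and with a width of 83 bp or less (right), by the number of peaks in their 1-Mb window (x axis); bars are 95% Wilson intervals, which cover counting error only, and the dashed line is 25%. The left share rises from 19.2% in the sparsest windows to 28.9% and 27.8% in the fullest classes, and the right share stays between 8.62% and 9.51%.

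No annotation or genome sequence of build mm9 was used here, so no gene was assigned to a peak, listed genes were not counted in windows, and no peak sequence is shown. The loci named next are background, placed to within a window by general knowledge of the mouse map after the window values had been seen. They were not checked against an mm9 annotation, and how far a peak lies from any gene was not determined. They are 24 genes in 15 windows, out of 140 epidermal genes listed. The other listed genes were not placed, and for 38 of the 53 dense windows no locus is named. Genes of the 7 lists of other cell types were not placed either, and some may lie in dense windows. The names therefore show nothing about how often dense windows hold epidermal genes, or whether they hold them more often than genes of other cell types.

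On that footing, the fullest window, on chromosome 7, is the region of Dkk3, a secreted protein of the Dickkopf family. The second, at chr5:91000001-92000000, is the region of the EGF-family ligand genes Epgn, Ereg, Areg and Btc, which activate the EGF receptor in keratinocytes; in the gene table of the later build GRCm38, used for gene order only, no other protein-coding gene stands between these 4. The same holds for Krt14, Krt16 and Krt17, named below, whereas 9 others stand between Elf3 and Lad1, and 10 among the span of Krt5, Krt6a, Krt6b and Krt8. The 32 peaks of the EGF ligand window contrast with the window just before it, which held 0, and the one after, which held 8. The window chr6:86000001-87000000 is the region of Tgfa, a further EGF receptor ligand. It held 28 peaks, 8 pairs within 5 kb and 9 peaks at chr6:86500001-86600000, with 14 and 17 peaks in the flanking windows.

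Regions of epidermal transcription factors were among the 53. The window chr16:25000001-26000000, region of Trp63, the regulator of the basal epidermal programme, held 24 peaks with 18 before and 11 after, and 3 pairs within 1 kb. The window chr2:167000001-168000000, region of Cebpb, a factor of keratinocyte differentiation, held 24 peaks with 3 on each side, and 7 of them lay at chr2:167600001-167700000. The window chr11:112000001-113000000, region of the hair follicle factor Sox9, held 28 peaks, at least 1 in every 100 kb, with 2 before and 15 after. Only windows that had passed the peak threshold were named, so the likeness of these counts was in part fixed in advance. It is not shown to be a trait of such regions. The surroundings, which the threshold did not choose, ranged from nearly empty to well filled.

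Others in this set were chr16:92000001-93000000, region of Runx1, with 23 peaks, 9 of them at chr16:92600001-92700000, and chr15:61000001-62000000, region of Myc, with 21 peaks, 8 of them at chr15:61900001-62000000. The window chr1:137000001-138000000, region of the epithelial factor Elf3 and of Lad1, a basement membrane anchoring protein, was described above. The window chr4:135000001-136000000, region of the barrier factor Grhl3, held 20 peaks, of which 9 were in the lowest 25% of the numbers of chromosome 4.

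Both keratin windows named here were at the lower end of the dense range. The type I keratin region with Krt14, Krt16 and Krt17, at chr11:100000001-101000000, held 20 peaks, 1 pair within 5 kb and at most 4 peaks in any 100 kb. The type II region with Krt5, Krt6a, Krt6b and Krt8, at chr15:101000001-102000000, held 20 peaks at a median spacing of 37.4 kb, the widest of the 53, and a gap of 334 kb. This is the window with numbers 2, 4 and 5 of its chromosome, and 10 of its 20 peaks were in the lowest 25%. Both windows were therefore sparse by the standard of dense windows but had low mean percentiles, 38.4 and 37.0. The type I window had 18 peaks before it and 10 after, and the type II window had 9 and 8. Their counts depend on where the grid cuts, and other keratin genes were not placed.

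The window chr8:109000001-110000000, region of Cdh1, the epithelial cadherin, held 23 peaks, 8 of them at chr8:109100001-109200000, and its mean percentile of 36.9 was among the lowest. The window chr6:94000001-95000000, region of the stem cell marker Lrig1, held 25 peaks, 9 of them at chr6:94100001-94200000, with a mean percentile of 57.7. The window chr11:115000001-116000000, region of the hemidesmosome integrin gene Itgb4, held 21 peaks, 1 pair within 5 kb, a lowest number of 100 and a mean percentile of 58.9. With the same order of peak counts, these 3 windows thus spanned nearly the whole range of mean percentiles.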

How the data were processed

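The authors deposited 1 BED list of 12137 overlap intervals for 4 libraries. Per the submitters' processing notes, BWA, HOMER and build mm9 were used, without versions or roles; these sources do not state which lists were intersected, or at what threshold and depth. The deposited score is 0 in every row and all rows are on the plus strand, so neither was used. Starts are given 1-based. Midpoints, 1-Mb windows, gaps, percentiles and widths were computed with Python 3.11.15, NumPy 2.4.6 and pandas 2.3.3, and plots drawn with matplotlib 3.10.9. Shares carry 95% Wilson intervals. The functions were tested on simulated peaks. No test was made, since positions chose the peaks and peaks are not replicates. Members and lists were chosen with earlier results of these data known. By rule, the text names the 6 fullest windows, adjacent dense windows, groups of 5 or more, and numbers 1 to 5 and the lowest number of the fullest windows; other regions were named after their values were seen. Counts over 11 epidermal lists and 7 lists of other cell types, and motifs, were not run, for want of an mm9 reference. Alternatives were other grids, thresholds, widths, merged peaks and chromosome 10 left out.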

Additional observations from a re-analysis of the deposited data

How the results depend on the processing

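No paired analysis was possible because the list holds no values per library, and for the same reason no library could be left out. Of 34 alternative values, 21 stayed within the limits set, 12 moved and 1 reversed. Values within the limits could still differ clearly. With only peaks wider than 83 bp, which counted as within them, 38 windows with 871 peaks remained, and 15 of the 53 fell below the threshold. The windows depended on the threshold by construction: with 15 or more midpoints there were 160 windows with 3040 peaks, and with 25 or more there were 14 with 405. Counting peaks within 5 kb as 1, chosen after the data were seen, left 23 windows with 501 peaks. A grid moved by 500 kb gave 51 windows with 1143 peaks, of which 464 were among the 1253 (37.0% of these and 40.6% of the 1143), so many peaks belong through the window borders. In all, 2884 peaks (23.8%) lay in some 1-Mb stretch with 20 or more. The share with a neighbour within 5 kb was 40.7% with 25 or more midpoints, and with neighbours within 1 and 20 kb it was 9.18% and 71.8%. Adjacent dense windows numbered 8 on the moved grid, 42 with 15 or more midpoints and 0 with 25 or more. The difference in mean percentile of name numbers, -2.25 points, reversed to 0.076 with 25 or more midpoints, and the cause was not tested. The unknown read depth limits which sites reached the list.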
